A study of Sus scrofa with 5 samples.

Results

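Among 28654 pig skin cells with at least 500 detected genes, 5046 met the conditions for a blood vessel endothelial cell and 232 of these made up the COL15A1 endothelial cells. An endothelial cell had at least 3 of the 6 genes VWF, PLVAP, CD93, EMCN, AQP1 and SOX18, at most 2 unique molecular identifiers (UMIs, each 1 counted RNA molecule) of the mural gene RGS5, and none of the leukocyte gene PTPRC. A COL15A1 endothelial cell also had at least 3 UMIs of COL15A1, at most 1 UMI of the venular gene ACKR1, and fewer than 2 of the 5 genes CSF3, STC1, IL33, FAM167B and SLPI. The last set is called the cytokine genes below, a short name only, since not all 5 encode cytokines. Members were thus chosen by their UMIs of these 15 genes and by their number of detected genes and no other value, so the levels of these genes are a description and support nothing.

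The study compared split-thickness skin grafts placed on full-thickness wounds of pigs. Grafts were left untreated or were dressed with FAKI hydrogels, made with a blocker of focal adhesion kinase (FAK), and the dressings were renewed every other day. FAK, encoded by PTK2, relays tension and adhesion signals from integrins. Grafts were collected at day 7 or day 90. The inhibitor grafts therefore differed from the untreated grafts in the hydrogel as well as in the inhibitor, and no graft under an empty hydrogel was analysed here. Unwounded pig skin was the fifth group, and it carried neither wound nor graft. All 5 samples were dissociated with enzymes and captured as single cells with 10x Genomics chemistry. Each group was 1 library, and the labels do not say how many pigs gave it, so no difference below could be set against the spread between animals and no p-value is given.

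Type XV collagen, the product of COL15A1, is a collagen with heparan or chondroitin sulfate chains that sits at the outer face of vascular and muscle basement membranes. The endothelial basement membrane is built from laminin and type IV collagen networks, linked by nidogens and by perlecan (HSPG2). Capillary and sprouting endothelial cells make much of this sheet themselves, and a high basement membrane program is a known feature of sprouting tip cells and of the small vessels around them. PLVAP forms the diaphragms of endothelial fenestrae and caveolae, CD93 is a receptor that binds matrix proteins, and EMCN is a sialomucin of capillaries and veins.

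Of the 232 cells, 32 came from the untreated graft at day 7, 21 from the inhibitor graft at day 7, 61 from the untreated graft at day 90, 93 from the inhibitor graft at day 90 and 25 from unwounded skin. Where 5 values stand in a row below, they keep this order. The cells held 167926, 152386, 540064, 956384 and 171061 UMIs in total, and these sums set the precision of every level. Levels are counts per 1000000 UMIs of such a sum (CPM), ratios compare CPM, and 95% intervals are exact and cover counting error only. The median number of UMIs per cell was 4207.5, 6307, 7413, 8515 and 6042. The median share of mitochondrial UMIs was 7.39%, 3.87%, 3.02%, 4.20% and 3.41%, so the 32 cells of the untreated graft at day 7 were both the shallowest and the highest in mitochondrial RNA.

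The cells carried endothelial RNA that the rule had not used. All 17 measured genes of a 19-gene endothelial identity list were detected in each library. PECAM1, a junction protein of endothelial cells, stood at 1382, 1319, 1402, 1475 and 1707 CPM, against 1531, 1312, 1687, 1728 and 1744 CPM in the other endothelial cells. CDH5, the endothelial cadherin, stood at 649, 328, 372, 423 and 514 CPM. Of the 4 markers named with these cells, only COL15A1 and CD93 were higher than in the other endothelial cells of every library. CD93 was 1.06 to 1.54 times as high, while PLVAP was 0.788 to 1.18 times and EMCN 0.689 to 1.09 times as high as in the other endothelial cells.

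RNA of other cell types was checked next, because it touches many ratios below. Of the 232 cells, 12 carried a set of markers of another type: 7 of fibroblasts, 3 of smooth muscle and 6 of lymphatic endothelium, some of more than 1 type. Such mixed-marker cells numbered 1, 1, 3, 6 and 1, and they held 14.8%, 10.9%, 14.7%, 15.7% and 11.3% of the UMIs of the COL15A1 endothelial cells. In the other endothelial cells they made up 3.65% to 8.57% of cells per library. The 14 fibroblast genes summed to 8921, 1116, 19037, 15531 and 357 CPM with these cells and to 329, 110, 712, 359 and 343 CPM without them. The 16 pericyte and smooth muscle genes summed to between 374 and 4397 CPM with them and to between 389 and 1081 CPM without them. Without them 7, 10, 9, 11 and 7 of these 16 genes were still detected. Their sums were then 692, 876, 1081, 714 and 389 CPM. All other endothelial cells, mixed-marker cells included, had 1059, 1006, 802, 489 and 529 CPM. KCNJ8 and ABCC9, which define pericytes, were at 0 in all 5 libraries without mixed-marker cells, as was the lymphatic chemokine CCL21. ABCC9 was at 0 in all 5 with those cells as well. CCL21, 5 of the fibroblast genes and 3 of the smooth muscle genes also served to define the mixed-marker cells. Their fall is therefore built in, in part. The leukocyte list summed to 345, 341, 144, 196 and 281 CPM over all members of the class. In the other endothelial cells it summed to 322, 375, 218, 196 and 214 CPM. In members 7 to 10 of its 17 measured genes were detected, with CD3E, CD3D and CD2 at 0 in every library. The conditions for an endothelial cell left out cells with PTPRC from both sets, so the level of leukocyte RNA follows from them in part. Results are therefore given for the 232 cells and, wherever the value moved by over 1.5 times or changed side, also for the 220 cells without mixed markers. No cell barcode was shared between libraries among the 232 cells, whereas 3 to 152 barcodes were shared between pairs of whole libraries.

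COL15A1 endothelial cells were a small share of the endothelial cells in each library, and the largest share was in the inhibitor graft at day 90. The share was 2.55% of 1253 endothelial cells in the untreated graft at day 7 (interval 1.75 to 3.59) and 2.02% of 1042 in the inhibitor graft at day 7 (1.25 to 3.06). At day 90 it was 5.55% of 1099 in the untreated graft (4.27 to 7.07) and 8.41% of 1106 in the inhibitor graft (6.84 to 10.2). Unwounded skin had 4.58% of 546 (2.98 to 6.69). Both day 90 intervals lay above both day 7 intervals, and the 2 intervals at each day overlapped, as did that of unwounded skin with the untreated graft at day 90. The interval of the inhibitor graft at day 90 lay just above that of unwounded skin, at 6.84 against 6.69. These intervals count cells of 1 library per group, so they do not rank treatments or times. A cut at 3 COL15A1 UMIs also depends on depth. Over all endothelial cells the median was 5889, 5622, 7773, 7963.5 and 7147.5 UMIs per cell. How many cells dissociation released from each tissue was not measured.

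The order of the shares depended on the rule. With a threshold of 2 COL15A1 UMIs, unwounded skin had 42 of 546 (7.69%) and the untreated graft at day 90 had 77 of 1099, and with a threshold of 5 unwounded skin had 1.65%. Of 1283 endothelial cells with at least 3 COL15A1 UMIs and at most 1 ACKR1 UMI, 1051 (81.9%) had 2 or more cytokine genes and so fell outside the class. That condition removed 89.7% and 88.9% of such cells in the day 7 grafts, 81.0% and 73.0% at day 90, and 78.8% in unwounded skin. FAM167B was detected in 67.5% to 86.1% and IL33 in 68.7% to 75.3% of all endothelial cells, so most cells carried at least 1 of the 5 genes. Without the condition the shares became 24.7% (22.4 to 27.2), 18.2% (15.9 to 20.7), 29.2% (26.5 to 32.0), 31.1% (28.4 to 33.9) and 21.6% (18.2 to 25.3). The 2 day 90 intervals then overlapped over most of their width, and at day 7 the inhibitor graft lay below the untreated graft.

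**Figure D1:**
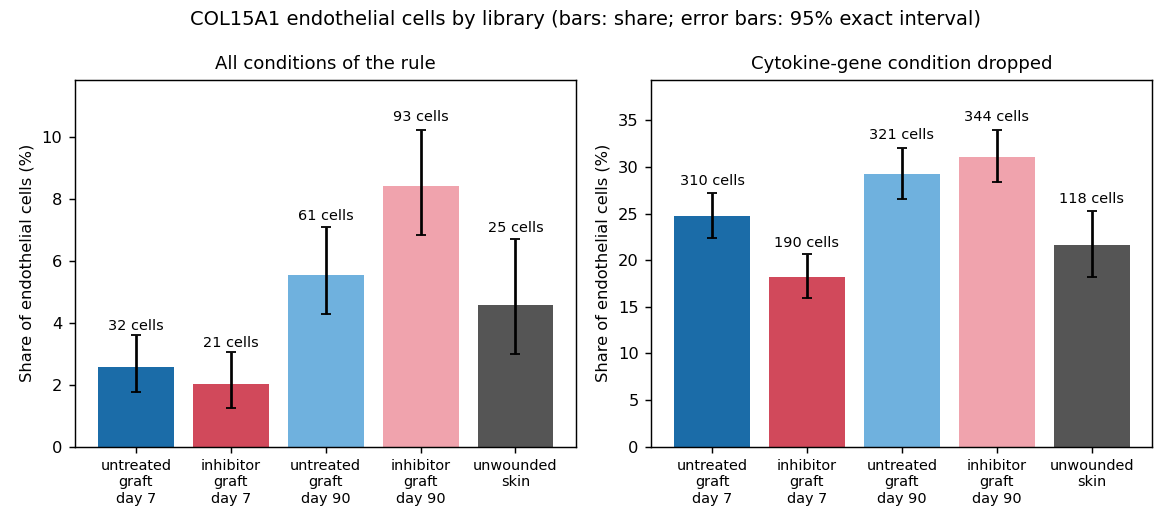
COL15A1 endothelial cells as a share of endothelial cells in each library (y axis, percent), with the number of cells above each bar and exact 95% intervals as error bars. With all conditions of the rule (left) the bars run from 2.02% in the inhibitor graft at day 7 to 8.41% in the inhibitor graft at day 90, and with the cytokine-gene condition dropped (right) from 18.2% to 31.1%.

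Against the other endothelial cells of the same library, COL15A1 endothelial cells had more RNA for basement membrane proteins and less for chemokines and venular adhesion genes. Of 2114 genes with at least 50 CPM in 1 of the 2 sets in every library, 22 (1.04%) were at least 1.5-fold higher in all 5 libraries and 22 (1.04%) at least 1.5-fold lower. The median log2 ratio of all these genes lay between -0.06 and 0.04. In single libraries the shares higher were 24.7%, 17.9%, 8.31%, 10.3% and 19.5% of the genes tested there, and the shares lower 12.9%, 17.8%, 9.37%, 10.4% and 10.4%. Since the rule reads the same cells, these ratios describe the cells and test nothing.

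The type IV collagen chains that form the basement membrane network were among the higher genes. COL4A1 stood at 4478, 3688, 3194, 3880 and 2069 CPM, against 1706, 1516, 1654, 1396 and 1173 CPM in the other endothelial cells. COL4A2 followed at 2590, 1831, 1868, 2357 and 1356 CPM against 1184, 993, 963, 920 and 773 CPM. The ratios were 1.76 to 2.78 for COL4A1 and 1.75 to 2.56 for COL4A2, with the lowest value of both in unwounded skin. COL18A1, which encodes a collagen related to type XV and the source of endostatin, was 1.62 to 2.09 times as high.

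Linker and laminin genes followed the same pattern. NID2, a nidogen that joins laminin to type IV collagen, stood at 351, 282, 244, 367 and 152 CPM against 109, 85.4, 109, 83.6 and 58.1 CPM, a ratio of 2.24 to 4.39. NID1 was 1.82 to 2.88 times and LAMB1, a laminin beta chain, 1.91 to 2.43 times as high. SPARCL1, a secreted matricellular protein related to SPARC, had the highest lowest ratio of all genes tested. Its levels were 649, 243, 333, 449 and 631 CPM against 55.3, 36.4, 73.9, 118 and 217 CPM, a ratio of 11.7, 6.68, 4.51, 3.80 and 2.91. Leaving mixed-marker cells out of both sets took the ratio in the inhibitor graft at day 7 from 6.68 to 3.68. In the grafts the SPARCL1 ratio was thus larger than in unwounded skin, where the other endothelial cells had the highest level of the 5 libraries.

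Of the 13 basement membrane genes tested, 8 were at least 1.5-fold higher in all 5 libraries and 12 were above 1 in all 5, with AGRN the exception. Over all 2114 genes tested, 219 were above 1 in all 5 libraries. The median log2 ratio of the list was 0.70 to 1.38 by library, and 0.87 to 1.44 without mixed-marker cells. A further 4 genes of matrix or adhesion were named by the same ranking: PXDN, a peroxidase that crosslinks type IV collagen, COL21A1, a fibril-associated collagen, MCAM, an adhesion receptor of endothelial and mural cells, and PCDH12, an endothelial protocadherin. MCAM stood at 262, 282, 224, 224 and 117 CPM against 90.7, 91.9, 87.7, 74.0 and 71.2 CPM, a ratio of 1.64 to 3.07. The remaining named genes were FADS3, MAP4K4, TP53I11 and TGM2, and TGM2 dropped to 0.810 times the level of the other cells in the inhibitor graft at day 7 once mixed-marker cells were left out.

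**Figure D2:**
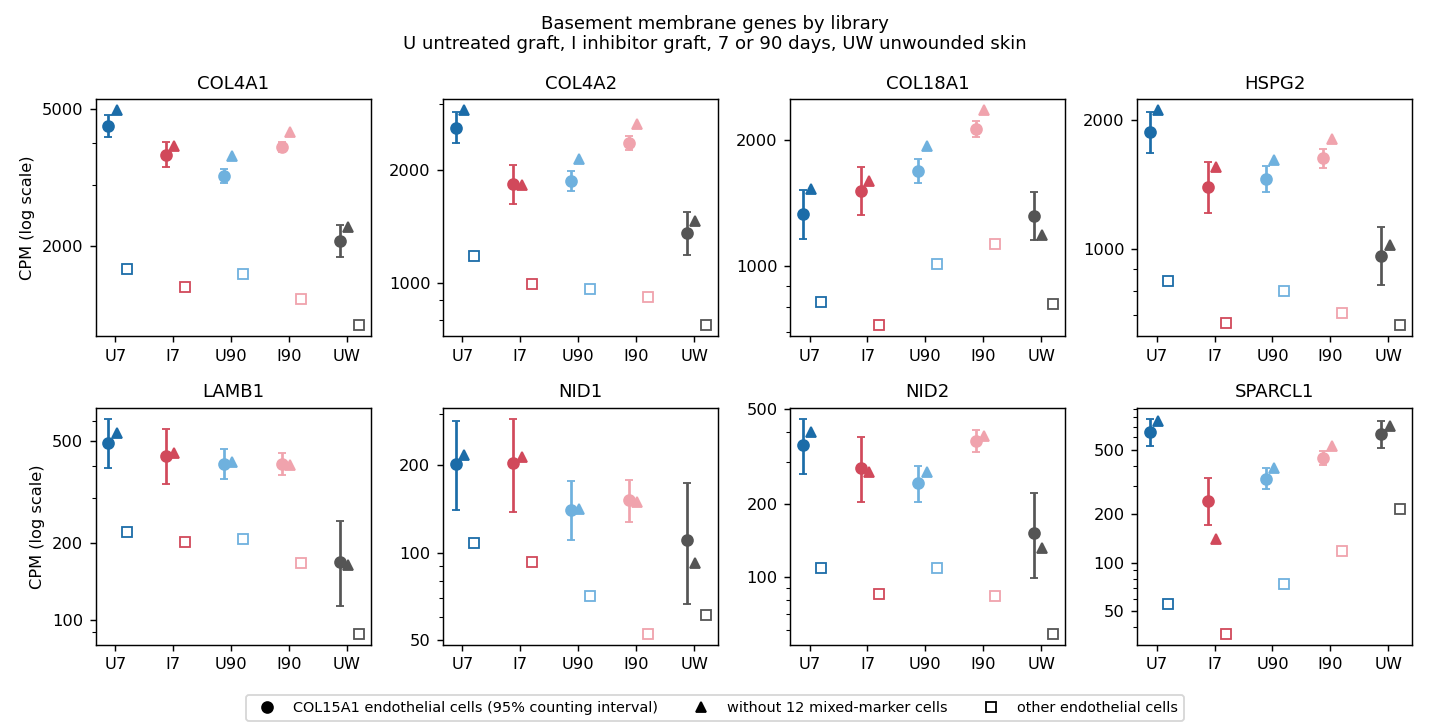
Levels of 8 basement membrane genes (y axis, CPM on a log scale) in each library, for COL15A1 endothelial cells (circles, with 95% counting intervals), the same without the 12 mixed-marker cells (triangles) and the other endothelial cells (open squares). Circles lie above squares in every panel and library; for NID2 the circles run from 152 to 367 CPM and the squares from 58.1 to 109 CPM.

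Genes of sprouting vessels were higher in part. Of 10 genes tested on a list of angiogenic and tip cell genes, 2 were at least 1.5-fold higher in all 5 libraries. Above 1 in all 5 were 7 of the 10, beside 219 of all 2114 genes tested. The median log2 ratio of the list was 0.40 to 1.01. PDGFB, the growth factor with which tip cells recruit pericytes, stood at 351, 203, 137, 198 and 164 CPM against 98.1, 79.1, 91.1, 82.6 and 80.5 CPM. APLN, the secreted ligand apelin, was unevenly spread, at 191, 78.7, 38.9, 50.2 and 5.85 CPM, with a UMI in 5, 7, 10, 20 and 1 cells. To compare cells at equal depth, each was thinned to 3000 UMIs and scored for at least 2 of 7 tip cell genes (ESM1, APLN, CXCR4, ANGPT2, KCNE3, PDGFB and UNC5B). Without mixed-marker cells this left 19, 17, 53, 82 and 20 COL15A1 endothelial cells, of which 42.1%, 52.9%, 15.1%, 31.7% and 40.0% met the score. In the other endothelial cells the shares were 13.1%, 14.1%, 9.03%, 9.18% and 7.13%. Unthinned, the shares were 54.8%, 65.0%, 44.8%, 62.1% and 41.7% against 23.4%, 25.4%, 25.7%, 30.6% and 20.1%. After thinning, the intervals of the 2 sets were apart in every library but the untreated graft at day 90, where they were 6.75 to 27.6 and 7.22 to 11.1. The thinned shares come from 1 random draw, and the intervals do not cover how they move between draws. As a measure of free RNA, leukocytes thinned alike had ESM1 in 0% of cells (exact 95% upper bounds of 0.712% to 21.8% per library) and APLN and UNC5B in at most 0.424% per library. PDGFB and CXCR4, which leukocytes also express, were found in 7.77% to 46.7% and 40.0% to 63.1% of them. No background was measured for ANGPT2 and KCNE3.

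Capillary genes gave a less distinct split by cell. Scored for at least 2 of CD36, BTNL9, GPIHBP1, CA4 and RBP7 after thinning, 47.4%, 29.4%, 18.9%, 29.3% and 45.0% of COL15A1 endothelial cells met the score, against 12.9%, 12.9%, 8.13%, 10.5% and 23.2% of the others. These shares too come from 1 random draw. The intervals were apart in the untreated graft at day 7 and the inhibitor graft at day 90. They overlapped in the inhibitor graft at day 7 (10.3 to 56.0 and 10.5 to 15.7), the untreated graft at day 90 (9.44 to 32.0 and 6.41 to 10.1) and unwounded skin (23.1 to 68.5 and 19.3 to 27.3). In counts without thinning, 8, 2, 16, 32 and 7 cells met both the tip cell and the capillary score. GPIHBP1, which anchors lipoprotein lipase to capillaries, was higher in each library at 643, 308, 352, 483 and 544 CPM against 216, 203, 177, 225 and 356 CPM. As a list, however, capillary genes moved little, with 1 of 13 at least 1.5-fold higher in all 5 libraries.

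The genes lower in COL15A1 endothelial cells were led by chemokines that attract T cells. CXCL10 stood at 143, 59.1, 1.85, 15.7 and 5.85 CPM against 645, 5800, 68.1, 188 and 218 CPM in the other endothelial cells. CXCL9 stood at 17.9, 59.1, 3.70, 1.05 and 23.4 CPM against 486, 2579, 79.0, 110 and 122 CPM. Both rest on few molecules here, with 1 to 7 of the COL15A1 endothelial cells of a library holding any CXCL10 and 1 to 4 any CXCL9. IL6, an inflammatory cytokine, stood at 149, 203, 217, 134 and 848 CPM against 1499, 919, 1043, 969 and 1632 CPM. VCAM1, an adhesion molecule for leukocytes, was 1.82 to 9.97 times lower, and IL1R1, the interleukin 1 receptor of venules, was 2.73 to 5.93 times lower. VEGFC, a growth factor for lymphatic vessels, was 2.22 to 6.52 times lower, and SRGN, a granule proteoglycan, 2.52 to 11.5 times lower. The other named low genes were TPST2, MT1X, THBS1, TSPO, FAM111A, ENPP2, FILIP1L and ADAMTS1. In the library with the ratio nearest 1, CXCL10 turned to 1.48 on the log2 scale, that is higher, when the threshold was 2 COL15A1 UMIs. ENPP2 and ADAMTS1 turned to 0.16 and 0.087 when the cytokine-gene condition was dropped.

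By list, 3 of 8 venular and venous genes, 2 of 11 genes of leukocyte adhesion and inflammation and 2 of 15 interferon response genes were at least 1.5-fold lower in all 5 libraries. The median log2 ratio of the venular list was -1.11 to -0.42, and ACKR1, the gene by which venular cells were left out, is not among its genes. The 4814 other endothelial cells nevertheless held 1704 cells with at least 2 ACKR1 UMIs, which the rule kept out of the class. Lower venular genes thus follow from the rule in part. The COL15A1 cells that the cytokine-gene condition left out had less IL6 and VCAM1 than the other endothelial cells as well. Without mixed-marker cells, IL6 in the untreated graft at day 7 stood at 161 CPM in COL15A1 endothelial cells, 321 CPM in cells with at least 3 COL15A1 UMIs and 2 or more cytokine genes, and 2345 CPM in endothelial cells below 3 COL15A1 UMIs. VCAM1 stood at 41.9, 92.3 and 381 CPM in the same 3 sets. In unwounded skin the cells with cytokine genes were the lowest of the 3, with IL6 at 949, 337 and 1972 CPM and VCAM1 at 165, 26.9 and 396 CPM. CXCL10 in the inhibitor graft at day 7 stood nearer to the other endothelial cells, at 66.3, 3751 and 7256 CPM.

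Basement membrane RNA was not confined to the cells that met the cytokine-gene condition. Cells with at least 3 COL15A1 UMIs that had 2 or more cytokine genes stood between COL15A1 endothelial cells and those below 3 COL15A1 UMIs in all 4 graft libraries for NID2, COL4A1 and LAMB1, mixed-marker cells left out. For NID2 the 3 sets had 399, 202 and 56.4 CPM in the untreated graft at day 7, 272, 160 and 47.6 CPM in the inhibitor graft at day 7, 273, 192 and 43.8 CPM in the untreated graft at day 90, and 383, 175 and 42.6 CPM in the inhibitor graft at day 90. In unwounded skin the values were 132, 110 and 38.6 CPM for NID2, whereas COL4A1 stood higher in the cells with cytokine genes, at 2721 CPM, than in COL15A1 endothelial cells, at 2267 CPM. The cells with cytokine genes were deeper, with median UMIs of 8160 to 9989 per library.

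Summed over libraries, NID2, COL4A1 and MCAM were higher in cells with more COL15A1. The number of COL15A1 UMIs ranged from 3 to 68 per cell, with medians of 4.5, 4, 7, 7 and 4. Over all libraries and without mixed-marker cells, NID2 stood at 199 CPM in cells with 3 to 4 COL15A1 UMIs, 290 CPM in cells with 5 to 9 and 414 CPM in cells with 10 or more. COL4A1 ran from 2709 over 3478 to 4997 CPM and MCAM from 164 over 206 to 340 CPM. CD93, a gene of the rule, ran from 1219 over 1934 to 2256 CPM. PECAM1, at 1669, 1576 and 1694 CPM, and SPARCL1, at 539, 399 and 546 CPM, did not follow this order. Nor did every library: in unwounded skin NID2 stood at 102, 183, 150 and 117 CPM in cells with 3, 4, 5 to 9 and 10 or more COL15A1 UMIs, and MCAM in the untreated graft at day 7 at 427, 496, 200 and 279 CPM, on 2 to 12 cells per value. Depth moved with the same bins, with median UMIs of 5454, 6855.5 and 10307 per cell, and the day 90 grafts supplied most of the cells with 10 or more. The part of either in these gradients was not tested.

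At the threshold itself, 79 cells met every other condition with 2 COL15A1 UMIs and 47 members had 3. NID2 stood at 105 CPM just outside and 187 CPM just inside, COL4A1 at 2202 and 2878 CPM, and SPARCL1 at 248 and 540 CPM. PLVAP stood at 1995 and 1818 CPM. NID2 and SPARCL1 went the other way in the inhibitor graft at day 7, on 13 and 5 cells, with NID2 at 206 and 156 CPM and SPARCL1 at 247 and 156 CPM, as did SPARCL1 in the inhibitor graft at day 90, at 389 and 362 CPM. These levels leave out mixed-marker cells, which leaves 65 and 42 cells over all libraries. Median depth of the 79 and 47 cells was 4406 and 4805 UMIs.

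**Figure D3:**
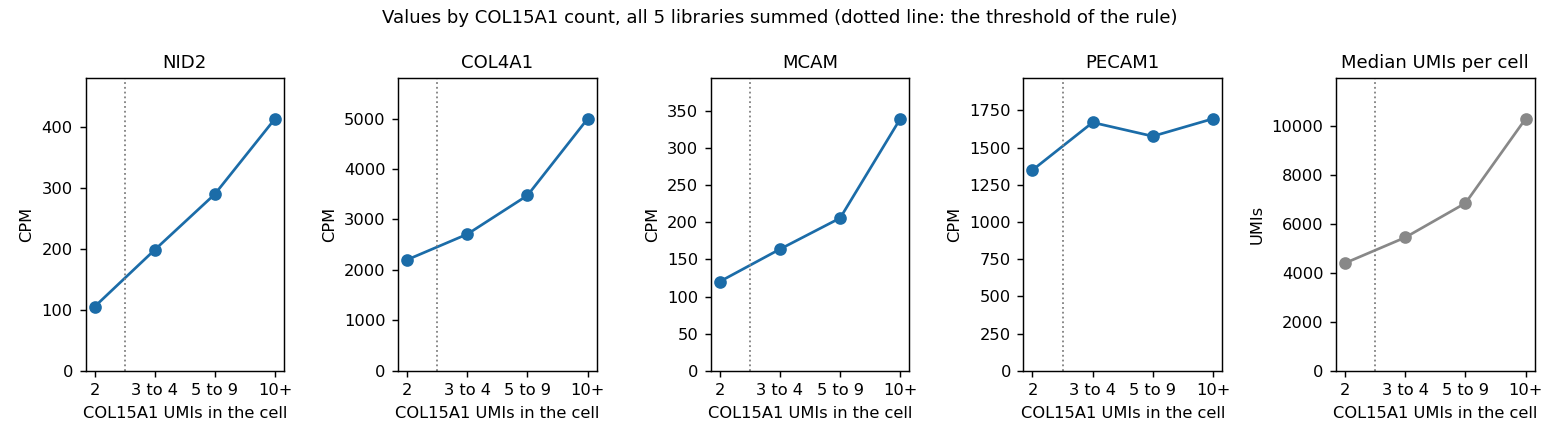
Levels (y axis, CPM) of NID2, COL4A1, MCAM and PECAM1, and the median UMIs per cell, against the number of COL15A1 UMIs in the cell (x axis), summed over 5 libraries without mixed-marker cells for the genes. NID2 goes from 105 to 414 CPM from left to right and PECAM1 from 1349 to 1694 CPM; the dotted line is the threshold of the rule.

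The effect of the inhibitor hydrogel at day 90 was the comparison with the most cells, 93 against 61. A gene counted as higher or lower where its CPM differed at least 1.5-fold and reached 50 CPM in either library, a mark of size without any test. Of 2668 genes, 11.9% passed it, 149 higher (5.58%) and 168 lower (6.3%) in the inhibitor graft, and the median log2 ratio of all was -0.04. This was the smallest share of the 6 comparisons between libraries, and both libraries had more member cells than any other. With ratios centred on their median, 171 genes were higher and 143 lower, so which side had more genes depended on scaling.

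Most gene groups were level between the 2 day 90 grafts. None of the 12 capillary, 13 interferon response, 11 antigen presentation, 13 immediate early, 11 heat shock, 11 hypoxia and glycolysis or 11 TGF-beta and BMP genes tested differed 1.5-fold. Without mixed-marker cells 2 of 13 immediate early genes were lower, and of 14 capillary genes 1 was higher and 1 lower. With the cytokine-gene condition dropped and mixed-marker cells left out, called the wider set below, 3 of 17 interferon response genes were higher. Of 13 immediate early genes there, 1 was higher and 1 lower, and over all genes 24 were higher and 44 lower. The shares of all genes given for each comparison are those of the class and not of the wider set. The number of genes tested on the wider set is not given, so its list counts have no such share beside them. Of 13 basement membrane genes 1 was higher, with a list median of 0.15 on the log2 scale. That gene was NID2, at 367 CPM in the inhibitor graft and 244 CPM in the untreated graft, 1.5-fold (interval 1.23 to 1.85), and 1.40-fold without mixed-marker cells, which is below the 1.5-fold mark. COL4A1 differed 1.21-fold (1.15 to 1.29) and HSPG2 1.12-fold (1.03 to 1.22), so both stayed within 1.5-fold with intervals above 1. On the wider set NID2 was at 1.09 times the untreated level (0.979 to 1.21), COL4A1 at 0.993 times and HSPG2 at 0.970 times.

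Of 14 angiogenic and tip cell genes 2 were higher in the inhibitor graft at day 90. CXCR4, the chemokine receptor of tip cells, stood at 135 against 72.2 CPM, 1.87-fold (1.30 to 2.75). ESM1, a proteoglycan secreted by tip cells, stood at 64.8 against 37.0 CPM, 1.75-fold (1.04 to 3.06), on 62 and 20 UMIs. PDGFB was at 198 against 137 CPM, 1.44-fold, and passed the mark at 1.51-fold without mixed-marker cells. CXCL12, the ligand of CXCR4, was at 620 against 459 CPM, 1.35-fold. On the wider set CXCR4 was at 1.28-fold, while ESM1 turned to 2.65-fold lower and CXCL12 to 1.31-fold lower in the inhibitor graft. The direction of ESM1 and CXCL12 thus rested on which COL15A1 cells were counted.

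CCL2, a chemokine for monocytes, was lower in the inhibitor graft at day 90, at 120 against 420 CPM, 3.50-fold (2.78 to 4.41). It was carried by 34 of 93 cells and 17 of 61 cells, so the share of cells with a UMI was larger in the inhibitor graft, opposite to the CPM. Without mixed-marker cells the difference in CPM was 2.84-fold. Without the cytokine-gene condition as well, it was 1.22-fold. SLCO2A1, a prostaglandin transporter, was also lower, at 49.1 against 120 CPM, 2.45-fold (1.66 to 3.64), and stayed 1.89-fold lower with the condition dropped. KIT, a receptor tyrosine kinase, was at 70.1 against 40.7 CPM, 1.72-fold higher (1.05 to 2.92), and 1.81-fold with the condition dropped. PTK2, the target of the inhibitor, was at 63.8 and 59.3 CPM. Of 17 integrin and focal adhesion genes, 2 were higher, TLN1 and FERMT2, and none was lower, and on the wider set none of 16 passed.

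The 20 genes with the most extreme ratios at day 90 were mostly the property of single cells. In 18 of them 1 cell held at least 50% of the UMIs in the library where the gene was higher, and CCL2 and PTX3 were the others. ACTA2, smooth muscle actin, stood at 712 against 44.4 CPM, with 98.2% of its UMIs in 1 cell of the inhibitor graft. Without mixed-marker cells it stood at 13.6 against 26.0 CPM. CCL21 stood at 145 against 16.7 CPM, all of its 139 UMIs in the inhibitor graft lay in lymphatic mixed-marker cells, and it was at 0 in both libraries without them. HPS5 was 381-fold higher in the untreated graft (67.6 to 15107) against 1 UMI, with 94.4% of its UMIs in 1 cell.

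At day 7 far more genes passed the mark between the inhibitor and the untreated graft than at day 90, on 21 against 32 cells. The cells held 152386 and 167926 UMIs, against 956384 and 540064 at day 90. The mark thus rested on fewer molecules at day 7, where counting error is larger. The part of counting error in the number of genes past the mark was not tested. Of 3194 genes, 45.3% passed the 1.5-fold mark, 547 higher (17.1%) and 901 lower (28.2%), with a median log2 ratio of -0.09. The counts were 69 higher and 90 lower with the cytokine-gene condition dropped, which raised the cells to 190 and 310. Between the day 90 grafts they were then 32 higher and 67 lower.

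Arterial, capillary and general endothelial genes leaned lower in the inhibitor graft at day 7. Of 17 endothelial identity genes 8 were lower and 1 higher, with a median log2 ratio of -0.57, and 11 were lower without mixed-marker cells, with a median of -0.80. Of 9 arterial genes 6 were lower and none higher, with a median log2 ratio of -1.37, and of 15 capillary genes 8 were lower and 2 higher, with a median of -0.98. CXCL12, a chemokine of arterial endothelium, stood at 269 against 774 CPM, 2.88-fold lower (2.01 to 4.19). NOTCH4, an endothelial Notch receptor, stood at 19.7 against 131 CPM, 6.65-fold lower (2.0 to 34.7) on 3 against 22 UMIs. LTBP4, which binds latent TGF-beta in elastic fibres, was 3.45-fold lower (1.25 to 11.8) on 5 against 19 UMIs.

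CD36, the fatty acid receptor of capillaries, stood at 91.9 against 542 CPM, 5.90-fold lower (3.34 to 11.2), and 1 cell of the untreated graft held 62.6% of its UMIs. FABP4, a fatty acid carrier of capillaries, stood at 3393 against 6747 CPM, 1.99-fold lower (1.79 to 2.21). With the cytokine-gene condition dropped and mixed-marker cells out, CD36 was 2.67-fold, LTBP4 1.90-fold and FABP4 1.60-fold lower, while CXCL12 at 1.38-fold and NOTCH4 at 1.49-fold were inside the mark. The arterial median was then -0.47, the capillary median -0.25 and the endothelial identity median -0.25.

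Heat shock genes leaned higher in the inhibitor graft at day 7, 7 of 11 with none lower and a median log2 ratio of 0.64. HSPD1, a mitochondrial chaperonin, stood at 538 against 191 CPM, 2.82-fold (1.86 to 4.39), and DNAJB1, a co-chaperone of HSP70, at 210 against 83.4 CPM, 2.52-fold (1.31 to 5.11). With the condition dropped and mixed-marker cells out, DNAJB1 was 3.76-fold higher and HSPD1 1.39-fold, and 1 of 11 genes of the list passed the mark. A single cell held 56.1% of the HSPD1 UMIs of the inhibitor graft.

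CXCL2, a neutrophil chemokine, was higher in the inhibitor graft at day 7, at 3734 against 822 CPM, 4.54-fold (3.77 to 5.51), and 1.66-fold with the condition dropped and mixed-marker cells out. TNC, the wound matrix glycoprotein tenascin C, stood at 1135 against 405 CPM, 2.80-fold (2.11 to 3.77), and at 1.20-fold on the wider set of cells. Basement membrane genes did not lean higher, with 5 of 13 lower, none higher and a median of -0.42. NID2 differed 1.25-fold (0.826 to 1.89) and COL4A1 1.21-fold (1.09 to 1.36), both lower in the inhibitor graft. Of 17 interferon response genes 4 were higher and 3 lower, with a median of 0.14. On the wider set, where 66 genes in all were higher and 90 lower, 12 of 19 were higher, with a median of 0.85. The difference between these interferon counts was not tested.

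Of the 20 most extreme genes at day 7, 18 had at least 50% of their UMIs in 1 cell of the higher library, and the others were CXCL2 and ATP13A3. ATP13A3, a transporter ATPase, had no UMI in the inhibitor graft and 107 CPM in the untreated graft, at least 5.44-fold lower against a floor of 3 counts. MMP9 stood at 887 CPM in the untreated graft, all of it from 1 cell. COL1A1 stood at 341 against 2561 CPM with mixed-marker cells and at 22.1 against 76.9 CPM without them. ACTA2 stood at 1234 against 137 CPM with them and at 29.5 against 14 CPM without them. Depth and mitochondrial share also differed between the 2 sets of cells, at medians of 6307 and 4207.5 UMIs and of 3.87% and 7.39%, and their part in these ratios was not tested.

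Grafts were next compared with unwounded skin, first at day 7 in the untreated graft and then at day 90 in both. The 3 comparisons share the 25 cells of unwounded skin, so a low or high value there enters all of them. In the untreated graft at day 7, 54.8% of 3323 genes passed the mark, 1040 higher (31.3%) and 782 lower (23.5%), with a median log2 ratio of 0.13. At day 90 the shares were 47.8% of 3031 genes in the untreated graft, 578 higher (19.1%) and 871 lower (28.7%), and 42.9% of 3010 in the inhibitor graft, 468 higher (15.5%) and 824 lower (27.4%). The medians of all genes were -0.13 and -0.16. The lower depth and higher mitochondrial share of the untreated graft at day 7, given above, touch this comparison and the one between the 2 times, and their part was not tested.

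Basement membrane genes were higher in all 3 of these grafts than in unwounded skin. Of 13 genes, 11 passed the mark upward at day 7, with none lower and a median log2 ratio of 0.96. At day 90, 7 were higher and 1 lower in the untreated graft (median 0.60), and 9 higher and none lower in the inhibitor graft (median 0.78). NID2 was 2.31-fold higher at day 7 (1.43 to 3.82), 1.61-fold in the untreated graft at day 90 (1.05 to 2.55) and 2.41-fold in the inhibitor graft at day 90 (1.62 to 3.75).

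LAMB1 was higher by 2.92-fold at day 7 (1.89 to 4.62) and by 2.41-fold in both day 90 grafts (1.63 to 3.69 and 1.65 to 3.65). COL4A1 was higher by 2.16-fold (1.90 to 2.46), 1.54-fold (1.38 to 1.74) and 1.88-fold (1.68 to 2.10), and HSPG2 by 1.94-fold, 1.51-fold and 1.69-fold. At day 7 COL4A2 was 1.91-fold higher (1.62 to 2.25). On the wider set of COL15A1 cells, mixed-marker cells out, 4, 3 and 2 of the 13 genes were higher and the medians were 0.18, 0.17 and 0.25. NID2 and LAMB1 kept ratios of 1.80 to 2.02 there in all 3 comparisons, while COL4A1 was at 1.11, 1.22 and 1.21 and HSPG2 at 1.11, 1.23 and 1.19.

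LGALS1, TNC and APLN had 5, 0 and 1 UMIs in the 25 cells of unwounded skin. LGALS1, a galectin of the cell surface and matrix, stood at 4061, 4902, 2228, 2102 and 29.2 CPM over the 5 libraries, with a UMI in 25 of 32, 17 of 21, 31 of 61, 49 of 93 and 3 of 25 cells. Without mixed-marker cells it stood at 2125, 4425, 686, 952 and 19.8 CPM. The untreated grafts were 139-fold (59.2 to 429) and 76.2-fold (32.6 to 235) above unwounded skin, and 108-fold and 34.7-fold without mixed-marker cells. The inhibitor graft at day 90 was 71.9-fold above (30.8 to 222). The other endothelial cells had 1619, 1709, 1207, 445 and 206 CPM, so the step between grafts and unwounded skin was also present outside the class but smaller. The ratios were 11.7, 3.64 and 4.29 on the wider set, and the COL15A1 cells of unwounded skin with 2 or more cytokine genes had LGALS1 at 163 CPM and TNC at 46.4 CPM. A single cell held 55.4%, 42.2% and 44.5% of the LGALS1 UMIs of the 3 grafts.

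TNC had no UMI in unwounded skin, so the untreated graft at day 7, at 405 CPM, was at least 23.1-fold higher against the floor of 3 counts. APLN was 32.6-fold higher at day 7 (5.45 to 1327) against 1 UMI, with 32 UMIs in 5 cells. PDGFB was 2.15-fold (1.35 to 3.50) and MCAM 2.24-fold higher (1.29 to 4.01) at day 7. On the wider set MCAM was at 0.995 and PDGFB at 1.26, both inside the mark. Of 16 angiogenic and tip cell genes 7 were higher and 4 lower at day 7. At day 90 3 of 13 were higher and 4 lower in the untreated graft, and 3 of 15 higher and 2 lower in the inhibitor graft.

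Integrin and focal adhesion genes leaned higher at day 7, with 9 of 18 higher, 3 lower and a median of 0.64, and the median was 0.02 on the wider set without mixed-marker cells and -0.04 with them. COL1A1, a fibroblast collagen, moved most with mixed-marker cells. The 3 grafts were 18.3-fold, 59.5-fold and 48.0-fold above unwounded skin with them, and 0.556, 1.69 and 1.14 times its level without them.

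**Figure D4:**
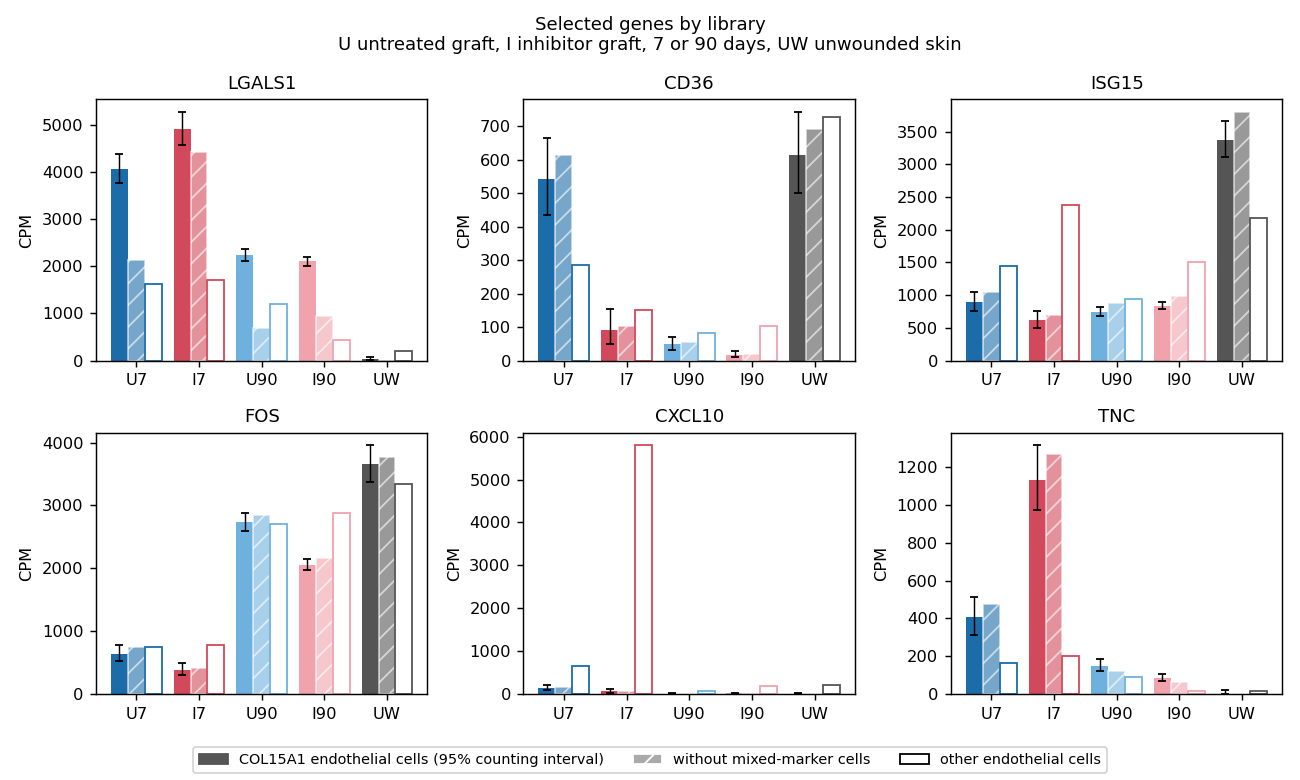
Levels (y axis, CPM) of 6 genes in each library for COL15A1 endothelial cells (solid bars, with 95% counting intervals), the same without mixed-marker cells (hatched bars) and the other endothelial cells (open bars). LGALS1 goes from 29.2 CPM in unwounded skin to 4902 CPM in the inhibitor graft at day 7, ISG15 is highest in unwounded skin at 3379 CPM, and CXCL10 is at 5800 CPM in the other endothelial cells of the inhibitor graft at day 7 against 59.1 CPM in COL15A1 endothelial cells.

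Interferon response genes were lower in grafts than in unwounded skin at both times. In the untreated graft, 12 of 19 were lower and 1 higher at day 7 (median log2 ratio -1.14), and 15 of 18 were lower with none higher at day 90 (median -0.98). In the inhibitor graft at day 90, 15 of 18 were lower with none higher (median -1.07). ISG15, a ubiquitin-like protein induced by interferon, stood at 899, 623, 748, 839 and 3379 CPM over the 5 libraries. It was 3.76-fold (3.14 to 4.53), 4.52-fold (3.97 to 5.14) and 4.03-fold lower (3.61 to 4.49) in the 3 comparisons.

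MX1, an antiviral GTPase, was 7.15-fold, 4.13-fold and 5.09-fold lower, and IFI6, a mitochondrial interferon-induced protein, 2.36-fold, 1.77-fold and 1.93-fold lower. On the wider set 16 of 20, 14 of 19 and 9 of 19 interferon genes were lower, and IFI6 was inside the mark at day 90, at 1.26-fold and 1.21-fold. Over all genes of that set, 348 were lower in the untreated and 303 in the inhibitor graft at day 90. In unwounded skin ISG15 was higher in COL15A1 endothelial cells than in the other endothelial cells, at 3379 against 2177 CPM, and in the 4 grafts it was lower. Antigen presentation genes were also lower in 9 of 13 cases at day 7, among them B2M, the light chain of class I molecules, by 2.32-fold (2.13 to 2.53), and in 5 of 13 cases at day 90 in either graft, beside 28.7% and 27.4% of all genes. Of 12 such genes on the wider set, 1 was lower and 1 higher at day 90 in either graft, with medians of -0.03 and -0.04.

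Immediate early genes, transcription factors and phosphatases that respond to stimuli within a short time, were lower at day 7 in 13 of 14 cases, with a median of -2.21. At day 90 they were lower in 10 of 14 cases in either graft, with medians of -0.95 and -0.85. FOS stood at 643, 387, 2729, 2056 and 3660 CPM over the 5 libraries, and KLF2, a factor induced by blood flow, at 369, 341, 1392, 1363 and 2251 CPM. At day 7 FOS was 5.69-fold (4.63 to 7.05), KLF2 6.10-fold (4.65 to 8.11) and EGR1 5.57-fold lower (3.71 to 8.66) than in unwounded skin. CXCL2 was 6.0-fold lower at day 7 (5.0 to 7.23). IER5L, an immediate early relative, was 9.23-fold lower (4.80 to 19.9). The other endothelial cells also had less FOS at day 7, at 748 and 781 CPM, than in unwounded skin, at 3340 CPM.

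Capillary and arterial genes were lower in the day 90 grafts than in unwounded skin. Of 14 capillary genes, 8 were lower in the untreated and 6 in the inhibitor graft, with none higher and medians of -0.69 and -0.42. CD36 stood at 48.1 and 17.8 CPM in the day 90 grafts and 614 CPM in unwounded skin, 12.8-fold (8.24 to 20.4) and 34.5-fold lower (20.6 to 61.5). It was carried by 4 of 61, 2 of 93 and 11 of 25 cells. BTNL9, a butyrophilin-like surface protein of capillaries, was 4.26-fold (3.06 to 5.95) and 2.84-fold lower (2.18 to 3.69). Both genes stayed lower on the wider set, CD36 by 14.9-fold and 13.5-fold and BTNL9 by 3.92-fold and 3.18-fold.

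Of 10 arterial genes, 8 were lower and 1 higher in the untreated graft at day 90 (median -1.42), and 6 lower and 1 higher in the inhibitor graft (median -1.16). CXCL12 was 2.72-fold (2.26 to 3.28) and 2.02-fold lower (1.72 to 2.36). SOX17, an arterial transcription factor, was 2.69-fold (2.11 to 3.43) and 2.75-fold lower (2.21 to 3.41), and HEY1, a Notch target, 3.08-fold (1.93 to 4.91) and 2.63-fold lower (1.75 to 3.89). LTBP4 was 3.04-fold and 2.49-fold lower. These arterial differences rested on the choice of COL15A1 cells: on the wider set CXCL12, SOX17 and HEY1 were 1.06-fold to 1.39-fold lower in both grafts, LTBP4 was 1.71-fold and 1.41-fold lower, and the list medians were -0.08 and -0.31. At day 7, 5 of 10 arterial genes were lower and 2 higher, and 2 of 15 capillary genes lower and 3 higher. At day 7, 10 of 16 capillary genes were lower and 1 higher on the wider set, with a median of -0.67, so capillary genes were lower at both times there.

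Genes of leukocyte adhesion and inflammation were lower at day 90 in 7 of 11 cases in the untreated graft and 8 of 11 in the inhibitor graft, with 1 higher in each and medians of -0.85 and -0.95. These counts were 3 of 12 and 4 of 12 on the wider set, with medians of -0.29 and -0.44. ADIRF, a small adipogenesis-related factor, was at 0, 85.3, 16.7, 42.9 and 655 CPM over the 5 libraries. In unwounded skin its UMIs came from 7 of 25 cells, and 1 of these held 48.2%. ADIRF was at least 36.6-fold lower at day 7 and 39.3-fold (20.0 to 88.2) and 15.3-fold lower (10.6 to 22.4) at day 90. Among the 20 most extreme genes per comparison, 15, 14 and 15 had at least 50% of their UMIs in 1 cell of the higher library. The 131 CCL21 UMIs of unwounded skin all came from 1 cell.

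**Figure D5:**
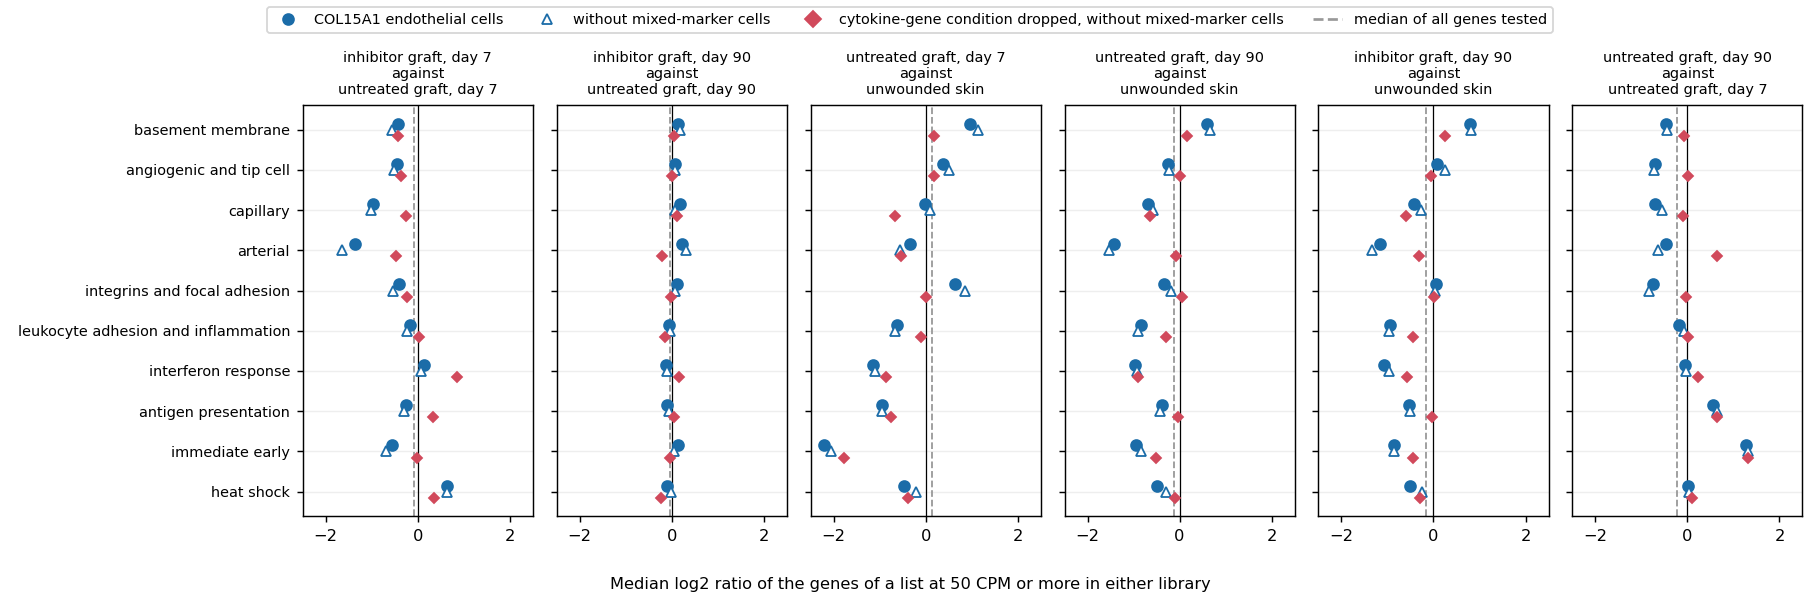
Median log2 ratio (x axis) of the genes of 10 lists (y axis) in 6 comparisons between libraries, for COL15A1 endothelial cells (circles), without mixed-marker cells (triangles), and with the cytokine-gene condition dropped and mixed-marker cells left out (diamonds); the dashed line is the median of all genes tested. Immediate early genes sit at -2.21 in the untreated graft at day 7 against unwounded skin and at 1.27 in the untreated graft at day 90 against day 7, and basement membrane genes at 0.15 in the inhibitor against the untreated graft at day 90.

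The last comparison set the untreated graft at day 90 against the same treatment at day 7, 61 against 32 cells. Of 3089 genes, 46.1% passed the mark, 446 higher (14.4%) and 977 lower (31.6%), with a median log2 ratio of -0.23. Of the passing genes 31.3% were higher, and 40.9% once ratios were centred on their median. The part of scaling in the lean was not tested. This comparison shares its libraries with those above, so its values are not independent of them.

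Immediate early and antigen presentation genes were higher at day 90 than at day 7. Of 13 immediate early genes 11 were higher and none lower, with a median of 1.27, and 11 of 13 were higher on the wider set. Over all genes of that set, 261 were higher and 351 lower. FOS was 4.24-fold (3.49 to 5.21), KLF2 3.77-fold (2.91 to 4.97) and EGR1 2.99-fold higher (2.02 to 4.58). Of 12 antigen presentation genes 5 were higher and 1 lower, with B2M at 1.59-fold (1.47 to 1.72) and CD74, the class II invariant chain, at 1.57-fold (1.46 to 1.69). Of 16 interferon response genes 5 were higher and 5 lower, with a median of -0.06. CXCL10 was among the lower ones, at 1.85 against 143 CPM, 77.2-fold (12.6 to 3174) with 1 UMI at day 90.

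Angiogenic and adhesion genes were lower at day 90 than at day 7. Of 16 angiogenic and tip cell genes 10 were lower and 3 higher, with a median of -0.70, and of 17 integrin and focal adhesion genes 11 were lower and 1 higher, with a median of -0.75. PDGFB stood at 137 against 351 CPM, 2.56-fold lower (1.79 to 3.66), and APLN at 38.9 against 191 CPM, 4.90-fold lower (2.74 to 8.94). KDR, the main VEGF receptor, stood at 183 against 351 CPM, 1.92-fold lower (1.36 to 2.67). ITGA5, the integrin chain that binds fibronectin, was 1.69-fold lower (1.26 to 2.25). With the condition dropped and mixed-marker cells out, these 4 genes were 1.17-fold to 1.37-fold lower, and the 2 list medians were 0.00 and -0.02.

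CD36 and TNC were lower at day 90 on both sets of cells. CD36 stood at 48.1 against 542 CPM, 11.3-fold lower (7.21 to 18.1), and was 2.98-fold lower there. TNC stood at 150 against 405 CPM, 2.70-fold lower (1.93 to 3.77), and was 3.72-fold lower there. Of 14 capillary genes 7 were lower and 1 higher, of 9 arterial genes 4 lower and 1 higher, and of 13 basement membrane genes 3 lower and none higher, with medians of -0.70, -0.48 and -0.47. Over the wider set the capillary median was -0.10 and the basement membrane median -0.07 with 1 gene lower, and arterial genes turned, with 5 of 9 higher, none lower and a median of 0.64. Of the 20 most extreme genes 16 had at least 50% of their UMIs in 1 cell, and the other 4 were FOS, CXCL10, KRT5 and SLC6A6.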

How the data were processed

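Single-cell RNA of pig skin was measured in 5 libraries, 1 per group. Per the labels' protocols, tissue was digested with enzymes and captured with 10x Genomics chemistry. The authors deposited UMI counts per gene and barcode, made with Cell Ranger per the submitters' processing notes, which also name Seurat 3.1.1; the matrix headers carry software version 3.1.0, and the genome build is not given in the sources used here. Symbols were at hand for 15351 of 20286 identifiers, 677 through a separate list of names. The libraries held 18485301 to 79671374 UMIs, 302766515 in all.

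The members and gene lists (27 lists, 397 of 444 genes measured) were chosen with earlier results of these data known. UMIs of the member cells were summed per library and scaled to CPM. Intervals are exact Poisson for levels, conditional binomial for ratios and Clopper-Pearson for shares, at 95%, and cover counting error only. A ratio against 0 UMIs used a floor of 3 counts in the sum. Named genes between libraries were the 10 highest and 10 lowest of each comparison by the interval bound nearest 1, at 50 CPM or more. Within libraries they were the 15 highest and 15 lowest by the ratio nearest 1, and any gene of a list could be named. Mixed-marker cells had at least 3 of DCN, LUM, PDGFRA, COL6A3 and CCDC80, at least 5 UMIs of MYH11, CNN1 and DES, or at least 3 of PROX1, CCL21, MMRN1, RELN and LYVE1. Scrublet marked 3 member cells among the top-scoring cells of their libraries, and they were kept. Its automatic threshold had called 1, 1, 79, 4 and 4 cells of all types, so it was not used. The ratios and their intervals were checked on simulated counts, drawn independently for each gene from summed UMIs. That simulation held no spread between cells, so it does not cover genes with most UMIs in 1 cell. Of the alternatives tried, 11 were planned, and 3 were added after seeing the data: mixed-marker cells left out, the cytokine-gene condition dropped, and both together. Software comprised Scanpy 1.11.5, SciPy 1.17.1, Matplotlib 3.10.9, pandas 2.3.3, NumPy 2.4.6 and Python 3.11.15.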

Additional observations from a re-analysis of the deposited data

Results flagged for a closer look

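The ratio between the inhibitor and the untreated graft went one way at day 7 and the other way at day 90 for 3 genes, each with intervals on opposite sides of 1. The difference between the days was not tested, because each group is 1 library. CCL2 was 1.67-fold higher at day 7 and 3.50-fold lower at day 90, a difference of -2.55 on the log2 scale, and without mixed-marker cells it was at 0.780 and 0.352 times the untreated level, lower at both days. POSTN, a fibroblast matrix gene, was at least 19.1-fold lower at day 7 and 6.15-fold higher at day 90, a log2 difference of at least 6.87, since the day 7 value is a bound against 0 UMIs. Without mixed-marker cells POSTN was at 0.467 times the untreated level at day 90 and gave no ratio at day 7, so the opposite directions were seen only with those cells. S100A4, a calcium-binding protein of fibroblasts and leukocytes, was 2.72-fold lower at day 7 and 5.78-fold higher at day 90, a log2 difference of 3.97, and stood at 0.405 and 1.78 times the untreated level without mixed-marker cells. With the cytokine-gene condition dropped as well, S100A4 was at 0.639 and 0.365 and POSTN at 0.317 and 0.717 times the untreated level at day 7 and day 90, lower at both, and CCL2 was at 1.69 and 0.818 times it.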

How the results depend on the processing

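With 1 library per group and 21 to 93 cells, only counting error could be given. No paired analysis was possible because each group has 1 library. Shares became 3.59%, 3.36% and 7.69% in the untreated and inhibitor grafts at day 7 and unwounded skin with at least 2 COL15A1 UMIs, and 1.28%, 0.960%, 3.82%, 6.51% and 1.65% over the 5 libraries with at least 5. Thinned to 3000 UMIs with 1 COL15A1 UMI they were 3.85% for the day 7 inhibitor graft and 6.97% for unwounded skin. With the cytokine-gene condition dropped they were 24.7%, 18.2%, 29.2%, 31.1% and 21.6%, and 25.3%, 18.4%, 29.9%, 31.5% and 22.2% with mixed-marker cells left out as well.

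Counts of genes past the mark are given as higher and lower, in the order inhibitor against untreated at day 7 and at day 90, untreated at day 7, untreated at day 90 and inhibitor at day 90 against unwounded skin, and untreated at day 90 against day 7. Dropping the cytokine-gene condition gave 69 and 90, 32 and 67, 692 higher, 362 and 390, 154 and 321, and 250 and 346. Leaving out mixed-marker cells too gave 66 and 90, 24 and 44, 687 higher, 308 and 348, 125 and 303, and 261 and 351. A minimum of 10 CPM gave 1509 and 2321, 922 and 1128, 2450 and 1899, 1662 and 2442, 1475 and 2469, and 1437 and 2636. No minimum gave 1509 and 2321, 1479 and 1913, 2450 and 1899, 1780 and 3151, 1542 and 3564, and 1576 and 3310. Mean CPM per cell gave 871 higher in the first and 276 lower in the second, thinning 352 and 487 in the second and 682 higher in the last, and at least 5 COL15A1 UMIs 259 lower in the second. Genes higher and lower than in other endothelial cells in all 5 libraries numbered 53 and 46 at 10 CPM, 513 and 47 with no minimum, and 36 lower with at least 5 COL15A1 UMIs.

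These log2 ratios changed sign, and the cause was not tested. At day 90 between the grafts ACTA2 was at -1.75 with 4 of 6 endothelial markers, -1.29 with PDGFRA, PDGFRB and LUM at 0, -1.04 without marked doublets, -0.93 without mixed-marker cells and -0.079 on the wider set. POSTN was at -1.03 with PDGFRA, PDGFRB and LUM at 0, -1.10 without mixed-marker cells, -0.37 with the cytokine-gene condition dropped and -0.48 on the wider set. ESM1 was at -1.32 and -1.40 in the last 2 of these, and S100A4 at -1.46 on the wider set. At day 7 CCL2 was at -0.36 without mixed-marker cells, and ACTA2 at -0.14 and MMP9 at 1.51 on the wider set. Between the untreated graft at day 7 and unwounded skin COL1A1 was at -0.85 both with PDGFRA, PDGFRB and LUM at 0 and without mixed-marker cells, and at -0.50 on the wider set. MCAM was at -0.073 with the cytokine-gene condition dropped and -0.0073 on the wider set, and the integrin list at -0.036 with it dropped. COL1A1 in the inhibitor graft at day 90 against unwounded skin was at -0.022 with PDGFRA, PDGFRB and LUM at 0. Between day 90 and day 7 the integrin list was at 0.021 with the condition dropped and the angiogenic list at 0.0040 on the wider set. Against other endothelial cells, in the library nearest 1, COL21A1 was at -0.11 with at least 5 COL15A1 UMIs and CXCL10 at 1.48 with at least 2. TGM2 was at -0.24 with 4 of 6 markers and -0.30 without mixed-marker cells. With the condition dropped and on the wider set, FADS3 was at -1.9e-05 and -0.014, ENPP2 at 0.16 and 0.075, and ADAMTS1 at 0.087 and 0.031.

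Fewer than 20 cells left some comparisons out: with at least 5 COL15A1 UMIs all but the one between day 90 grafts, and between day 7 grafts those with 4 of 6 markers, with PDGFRA, PDGFRB and LUM at 0, and with thinning.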
